A study of Caenorhabditis elegans and Caenorhabditis briggsae with 26 samples.

Results

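The RIT gene models with C. briggsae values are the rows of the deposited expression table whose ID starts with RIT and that carry a value in every one of the 13 C. briggsae libraries. There were 118 of them among 2643 RIT IDs and 21774 IDs in all. These IDs lie outside the standard C. elegans sequence names, and no annotation used here pairs them with a gene name, a position or a sequence. They are therefore called by their IDs alone, and what the letters and digits of an ID stand for is not given in the sources used here. Of the RIT IDs 4.465% had C. briggsae values, against 72.239% of the other IDs. The 118 models came from all 12 ID series, RIT1M to RIT6P, at 3.24% to 7.08% of each.

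The study sequenced poly(A) RNA of whole animals of the wild-type strains C. elegans N2 and C. briggsae AF16 through development. Animals grew at 20 °C in liquid medium on E. coli AT713. Mixed embryos were freed from gravid adults with bleach, and larvae that had hatched and arrested without food were then fed and collected by time. In C. elegans the hours after food were 7 for L1, 20 for L2, 29 for L3, 41 for early L4, 52 for late L4 and 57 for young adults that did not yet carry eggs. In C. briggsae they were 6, 20, 28, 41, 53 and 63. Each species had 3 libraries of embryos and 3 of L1 larvae, namely replicates A1 and A2 of sample A, and sample B. Samples A and B are taken here as cultures of separate time courses, so n = 2 cultures. Only culture A covered the 5 remaining stages, with a single library for each, and a reference of mixed stages had 2 libraries. In whole animals, fewer cells of a type and less RNA per cell cannot be told apart.

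A gene model is a predicted transcript structure, and an ortholog is the gene in another species that descends from the same ancestral gene. C. elegans and C. briggsae are closely related hermaphroditic nematodes with the same sequence of an embryo, larval stages separated by molts, and an adult. Transcripts made in the adult germ line are loaded into oocytes, so maternal transcripts are known from both adults and early embryos, whereas many transcripts of differentiated tissues such as the gut and the cuticle are known to rise in larvae.

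The stage labels were set beside marker lists. The summed level of yolk protein genes was highest in young adults of both species, at 11114 RPKM in C. elegans and 19881 RPKM in C. briggsae, and it stood at 454 RPKM in C. elegans L2 larvae. The summed level of early embryo and maternal genes was highest in C. elegans young adults, at 4771 RPKM, and in C. briggsae embryos, at 4397 RPKM. The neuronal list was highest in L1 larvae and the sperm list in young adults of both species. The adult cuticle list was highest in young adults in C. elegans, at 2026 RPKM, but in late L4 larvae in C. briggsae, at 4086 RPKM, where L2 larvae stood at 1615 RPKM and L3 larvae at 689 RPKM. The intestinal list was highest in late L4 larvae in C. elegans and in L3 in C. briggsae, and the body wall muscle list in L2 and in late L4 larvae.

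Most RIT models were expressed at low levels. RPKM is a read count scaled to model length and library size, so levels of different models can be set side by side. The median RIT model stood at 0.564 to 1.70 RPKM in the C. elegans libraries and at 0.834 to 2.26 RPKM in the C. briggsae libraries. Other IDs with C. briggsae values had medians of 5.95 to 11.8 RPKM and 3.11 to 10.5 RPKM in the same libraries. At least 1 RPKM was reached by 45 to 74 of the 118 models in the C. elegans libraries, lowest in young adults and highest in reference library A2. In the C. briggsae libraries 52 to 81 models reached it, lowest in embryo library B and highest in L1 library B. No library had more than 3 RIT models at 100 RPKM or above. Over the 7 stages, 84 models reached 1 RPKM at some stage in both species, 6 only in C. elegans, 22 only in C. briggsae and 6 in neither. Only 14 models, or 11.86%, reached it at every stage in both species, against 50.9% of the other IDs.

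**Figure D1:**
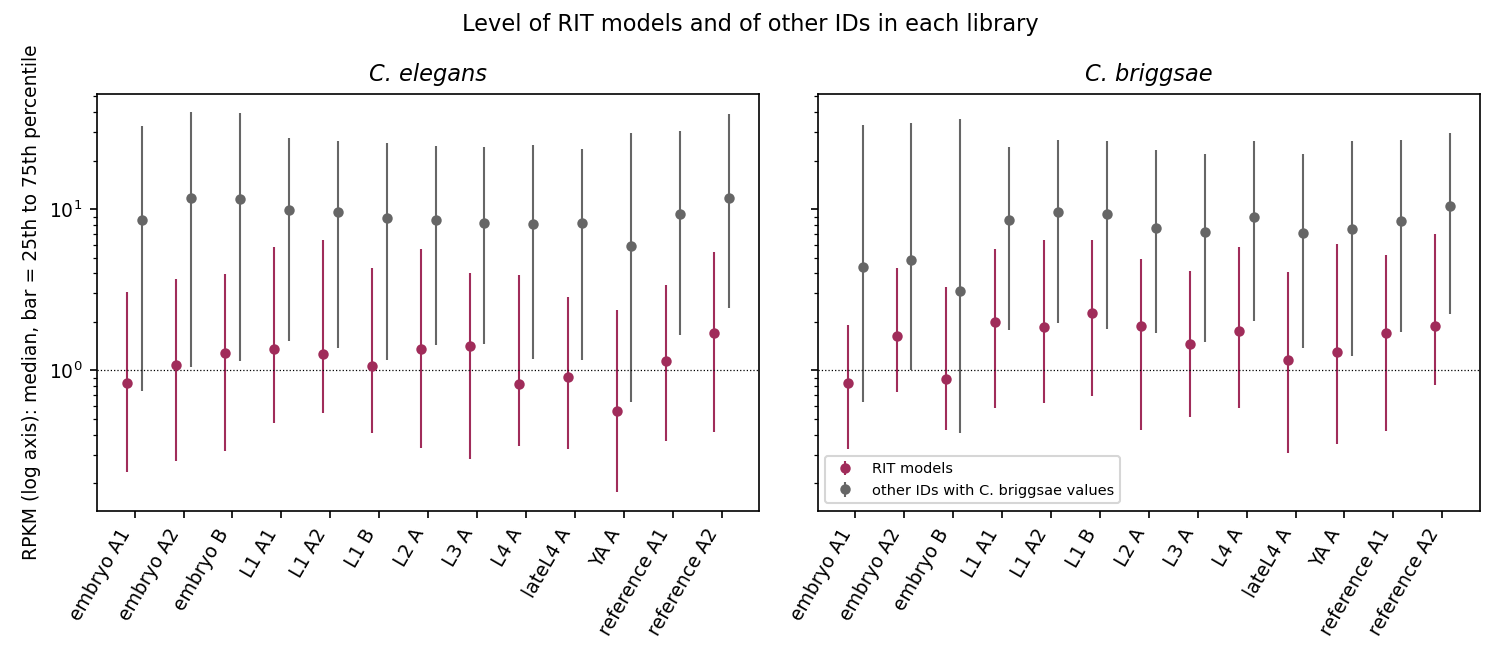
RPKM on a log axis in each of the 26 libraries, for the 118 RIT models and for 13700 other IDs with C. briggsae values that no other ID shares; points are medians and bars span the middle of the distribution from the 25th to the 75th percentile. The RIT medians lie between 0.564 and 2.26 RPKM, below the median of the other IDs in every library.

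Many low values differed between libraries only by a ratio that many rows shared. For each species a large set of rows stood in one exact ratio between libraries, here called the common step. Relative to L2 larvae, embryo library A2 had a C. briggsae step 2.47 times as high, and the 11 other libraries had one of 0.832 to 1.27 times. In C. elegans the factor was 2.33 and 2.47 for embryo libraries A2 and B, 2.45 to 3.39 for L1 larvae and 0.776 to 0.974 in the remaining libraries. What number of reads the step stands for is not given in the sources used here. A value was counted as on the step where at least 3 libraries of the species agreed in this ratio within 0.001 on a natural log scale.

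Of the 118 models, 36 (30.51%) had such values in C. elegans and 42 (35.59%) in C. briggsae, and 21 had them in both. Among 13700 other IDs the shares were 11.9% and 15.39%. In 61 models fewer than 3 libraries were on the step in either species. For 16 models the C. briggsae step in L2 larvae was itself at least 1 RPKM, so that values on the step could pass the filter on low values. The step was not the lowest value a row could hold: of 546 C. briggsae values in the 42 models, 292 were on it, 145 below it and 109 above it.

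The 5 models whose C. briggsae values were identical to those of another ID had many values of this kind. They are RIT1P.1360, RIT1P.251, RIT4P.274, RIT5P.2016 and RIT5P.2621, and they were on the C. briggsae step in 12, 13, 13, 8 and 12 of 13 libraries. RIT1P.251 stood at 3.81, 8.78 and 4.51 RPKM in C. briggsae embryos, at 3.43, 3.71 and 3.89 RPKM in L1 larvae and between 2.96 and 3.55 RPKM at the later stages. That course is the step itself, with embryo library A2 high and all other libraries nearly level. RIT5P.2621 shared its values with 8 other IDs, among them the collagen gene col-151 and the spermatogenesis gene spe-21, which are unrelated by name. Every one of the 125 IDs with shared C. briggsae values had at least 7 libraries on the step. In C. elegans these 5 models reached at most 2.33 RPKM in any library. They were left out of every fit that used C. briggsae values.

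**Figure D2:**
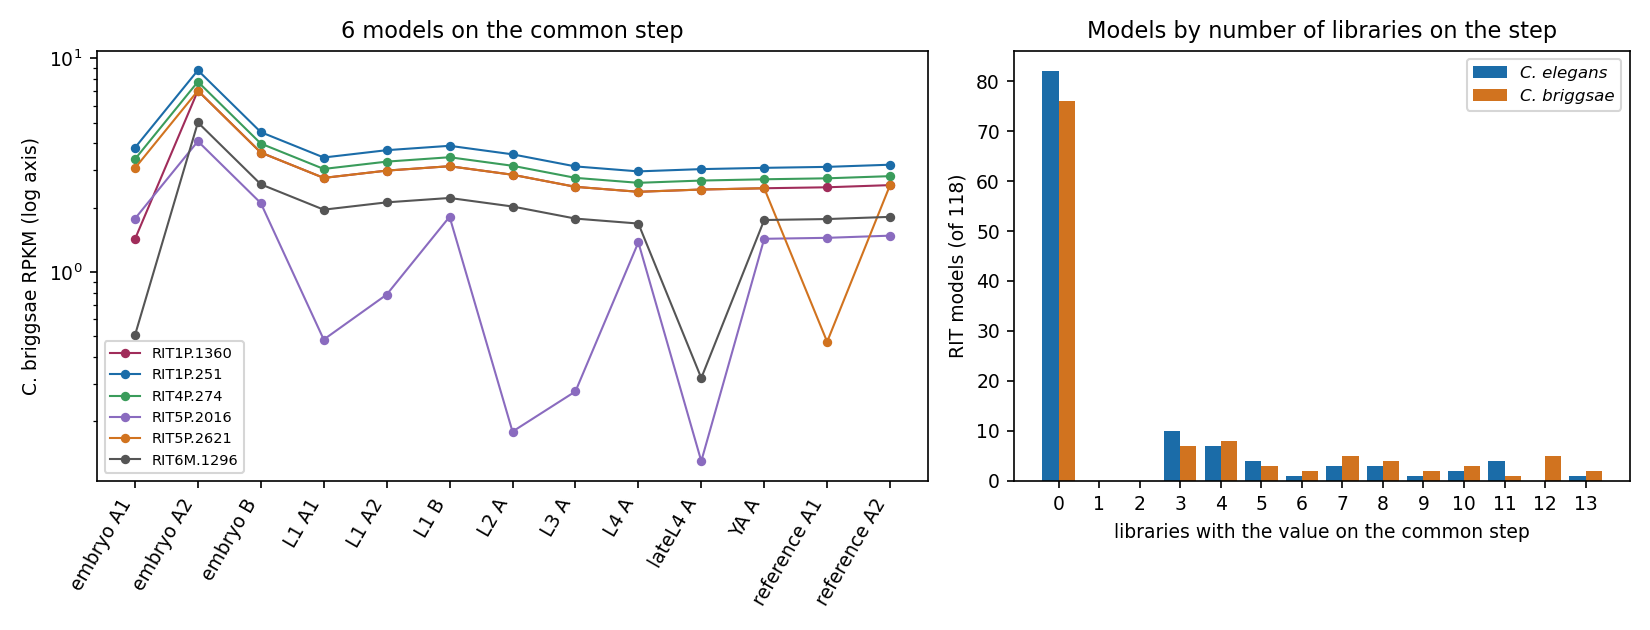
Left: C. briggsae RPKM on a log axis in 13 libraries for the 5 RIT models with shared values and RIT6M.1296; the lines run in parallel except for lower values in some libraries, most of them in RIT5P.2016. Right: number of RIT models by the number of libraries on the common step in each species; 14 models in C. elegans and 22 in C. briggsae have 7 or more.

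The 8 models with the highest mean level over both species were RIT2M.1319, RIT6M.999, RIT3P.789, RIT1M.141, RIT3P.171, RIT6M.1296, RIT5M.1281 and RIT4P.1659. RIT2M.1319 was nearly silent in embryos and very high later. In C. elegans it stood at 0.150, 0.138 and 0.690 RPKM in the embryo libraries, 40.5, 46.3 and 23.4 RPKM in L1 larvae, 194, 26.9, 68.4 and 53.6 RPKM from L2 to late L4, and 1026 RPKM in young adults. In C. briggsae it stood at 0.637, 0.132 and 0.521 RPKM in embryos, 9.50, 7.53 and 7.63 RPKM in L1, 563, 14.9, 283 and 534 RPKM from L2 to late L4, and 433 RPKM in young adults. Embryos were below all other libraries in both species, L3 was the lowest stage after L1 in both, and the highest stage was the young adult in C. elegans and L2 in C. briggsae. The adult cuticle list was likewise higher in C. briggsae L2 than L3 larvae. In C. elegans that list went the other way, at 63.6 RPKM in L2 and 951 RPKM in L3 larvae. Any part of these stage differences in the values of this model was not tested.

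RIT6M.999 was also low in embryos, at 10.3, 8.96 and 39.0 RPKM in C. elegans and 3.00, 1.99 and 3.85 RPKM in C. briggsae. It reached 124 RPKM in C. elegans L4 larvae and 118 RPKM in C. briggsae young adults. RIT3P.789 went the other way and was highest in embryos of both species, at 103, 24.9 and 28.4 RPKM and at 41.2, 31.0 and 45.5 RPKM, with L1 values of 9.59 to 12.2 RPKM and 19.3 to 22.9 RPKM. The embryo libraries lay above the L1 libraries in both species, although C. elegans embryo libraries A1 and A2, from the same culture, differed widely. Library A2 was below the C. elegans L4 library, at 26.4 RPKM, and library B was close to it. RIT1M.141 lay between 7.69 and 22.7 RPKM in C. elegans and between 16.3 and 37.9 RPKM in C. briggsae.

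Setting embryos against L1 larvae asks which transcripts change between the unhatched and the first fed stage, and no other pair of stages had a second culture. The test used limma on log2(RPKM + 1), with the 2 libraries of culture A averaged, and called a model at a Benjamini-Hochberg adjusted p under 0.05 over all IDs tested. In C. elegans 79 RIT models were tested, of which 27 were higher and 32 lower in embryos. Over all 15277 IDs tested 42.6% were called higher and 28.3% lower, 70.8% in all. The median difference was -0.02 (log2) over the RIT models and 0.33 over all IDs. In C. briggsae 84 models were tested, of which 20 were higher and 40 lower in embryos, beside 32.8% and 41.5% of all 11891 IDs, 74.3% in all. The median difference was -0.63 over the RIT models and -0.14 over all IDs. Only models with at least 1 RPKM in 2 of the 4 samples were tested, so these medians do not describe all 118 models. A model that met this through 1 stage alone could be called only as higher at that stage. In C. elegans these models included RIT2M.1319, RIT4M.1636, RIT4M.1649, RIT4P.982, RIT2P.830, RIT5M.2181, RIT5P.1822 and RIT6P.965. In C. briggsae they included RIT2M.1319, RIT4M.1636, RIT1M.985, RIT5P.1122, RIT2M.694, RIT5P.1008, RIT4P.125 and RIT4M.367.

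The balance of higher and lower models depended on the scaling of the libraries. In C. elegans median-ratio scaling gave 22 models higher and 34 lower in embryos, with a median difference of -0.24. Over all IDs it turned 6501 higher and 4320 lower into 5120 and 5944, and the median difference from 0.33 to -0.07. In C. briggsae the same scaling gave 16 models higher and 44 lower, and moved the median difference to -0.91 over the RIT models and -0.63 over all IDs. With quantile normalization 35 C. briggsae models were higher and 25 lower in embryos, and the median difference of the RIT models turned to 0.29, while that of all IDs moved to 0.07. The balance also depended on single cultures. Without C. elegans embryo culture A or B, 10 or 8 models were higher and 28 lower either time, and without L1 culture A or B, 24 or 21 were higher and 13 or 16 lower. Without C. briggsae L1 culture A or B, 16 or 18 models were higher and 15 or 14 lower in embryos, and without embryo culture A or B, 12 were higher either time and 41 or 37 lower. Leaving out a culture leaves its stage 1 sample, so a model that reached 1 RPKM at that stage alone no longer met the filter and was not tested.

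Among the models higher in C. elegans embryos, the largest differences were those of RIT4P.982, RIT2P.830, RIT1M.985 and RIT5M.2181. RIT4P.982 stood at 30.1, 23.7 and 17.3 RPKM in the C. elegans embryo libraries and at 0.423, 0.257 and 0.343 RPKM in the L1 libraries. All embryo libraries lay far above all L1 libraries, and the model was also high in the L3 library, at 36.4 RPKM. The difference was 4.07 (SE 0.29, n = 2 cultures a stage, limma adjusted p = 2.8e-05). In C. briggsae the same model fell from 51.3, 29.3 and 37.8 RPKM in embryos to 14.8, 10.5 and 19.3 RPKM in L1 larvae, a difference of 1.25 (SE 0.26, limma adjusted p = 0.0074).

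RIT2P.830 followed the same course in C. elegans, with 10.6, 7.06 and 7.60 RPKM in embryos, 0.252, 0.241 and 0.277 RPKM in L1 and 39.8 RPKM in L3 larvae. In C. briggsae its embryos stood at 20.8, 21.5 and 22.6 RPKM and no later stage exceeded 5.69 RPKM. The embryo excess was 2.85 (SE 0.22) in C. elegans and 2.24 (SE 0.27) in C. briggsae, with limma adjusted p = 4.1e-05 and 0.00086. RIT5M.2181 was higher in embryos of both species as well, by 2.19 (SE 0.26) and 1.79 (SE 0.22).

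RIT1M.985 was high in embryos and young adults of both species. In C. elegans it stood at 19.7, 16.0 and 14.3 RPKM in embryos, 1.66, 1.85 and 1.49 RPKM in L1, 0.743 to 2.39 RPKM from L2 to late L4, and 78.1 RPKM in young adults. In C. briggsae it stood at 26.4, 34.7 and 30.5 RPKM in embryos, 0.233, 0.0629 and 0.421 RPKM in L1, 0.196 to 0.434 RPKM from L2 to late L4, and 15.2 RPKM in young adults. The larval libraries were low throughout, and none overlapped with the embryo or adult libraries.

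RIT4M.1636 rose from embryos to L1 larvae in both species and was among the 4 models with the largest such differences in each. In C. elegans the embryo libraries stood at 0.0514, 0.180 and 0.0949 RPKM and the L1 libraries at 20.7, 24.6 and 12.8 RPKM. In C. briggsae they stood at 0.280, 0.271 and 0.677 RPKM and at 47.7, 71.4 and 41.4 RPKM. The groups lay far apart in both species, and later larvae kept values of 4.24 to 18.7 RPKM. The embryo minus L1 difference was -4.03 (SE 0.31, limma adjusted p = 3.9e-05) in C. elegans and -5.10 (SE 0.32, limma adjusted p = 0.00017) in C. briggsae. RIT4M.1649 also rose from embryos to L1 larvae, with embryo minus L1 differences of -2.98 (SE 0.37) and -1.78 (SE 0.24).

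In C. briggsae embryos the largest excess belonged to RIT2P.1807, at 562, 577 and 448 RPKM against 1.03, 0.876 and 1.44 RPKM in L1 larvae. Young adults stood at 99.1 RPKM and the reference libraries at 103 and 96.7 RPKM, whereas L2 to late L4 stood at 1.10 to 5.43 RPKM. In C. elegans the same model was modest, at 7.85, 9.83 and 13.2 RPKM in embryos, 1.86 to 2.90 RPKM in L1 larvae and 1.10 RPKM in young adults. The embryo minus L1 difference was 7.86 (SE 0.23, limma adjusted p = 9.3e-05) in C. briggsae and 1.87 (SE 0.30, limma adjusted p = 0.00098) in C. elegans.

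RIT5P.1122 and RIT2M.694 were embryo-high in C. briggsae and near the bottom of the scale in C. elegans. RIT5P.1122 stood at 53.8, 59.8 and 49.1 RPKM in C. briggsae embryos, at 0.215, 0.232 and 0.243 RPKM in L1 larvae, all 3 on the step, and at 2.59 RPKM in young adults. RIT2M.694 stood at 30.5, 35.6 and 36.1 RPKM in C. briggsae embryos and at no more than 0.315 RPKM at any later stage. In C. elegans no library exceeded 0.0664 RPKM for RIT5P.1122 or 0.278 RPKM for RIT2M.694, and each had 8 of 13 libraries on the step.

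Of the models lower in C. briggsae embryos, RIT5P.1008 stood at 0.0881, 0.601 and 0.309 RPKM in embryos and at 42.8, 33.8 and 38.7 RPKM in L1 larvae. RIT4P.125 rose from 0.649, 0.918 and 0.471 RPKM to 28.1, 39.2 and 28.7 RPKM. RIT4M.367 rose from 0.760, 0.789 and 0.0231 RPKM to 22.9, 26.4 and 25.6 RPKM. No embryo library of these models overlapped with an L1 library. In C. elegans RIT4P.125 and RIT4M.367 were also lower in embryos, by -1.14 (SE 0.39, limma adjusted p = 0.031) and -1.53 (SE 0.30, limma adjusted p = 0.0029), while RIT5P.1008 was too low there to be tested.

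The direction of the embryo to L1 change was mostly shared, in RIT models as in other IDs. Of 66 models tested in both species, 38 were called in both, and 33 of those (86.84%) had the same direction, 10 higher and 23 lower in embryos. Among 10656 other IDs tested in both, 6317 were called in both and 89.39% of those had the same direction. The 5 models called in opposite directions were RIT2P.230, RIT6M.224 and RIT6M.504, higher in C. elegans embryos and lower in C. briggsae embryos, and RIT5P.1822 and RIT6P.965, the reverse. RIT2P.230 was named after its values were seen.

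RIT6P.965 rose from embryos to L1 larvae in C. elegans and fell in C. briggsae. In C. elegans it stood at 0.233, 0.0942 and 0.281 RPKM in embryos and at 28.6, 35.6 and 15.2 RPKM in L1 larvae. In C. briggsae it stood at 45.3, 52.5 and 45.5 RPKM in embryos and at 6.98, 7.84 and 8.68 RPKM in L1 larvae. Embryos were the lowest stage in C. elegans and the highest in C. briggsae, with no overlap of libraries in either. The difference between the species in the embryo minus L1 change was -6.66 (SE 0.48, limma adjusted p = 9.0e-05).

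RIT5P.1822 was low in C. elegans, at 1.28, 0.673 and 0.451 RPKM in embryos, with L1 larvae at 4.22, 4.79 and 3.46 RPKM. In C. briggsae embryos it stood at 152, 119 and 134 RPKM, in L1 larvae at 2.29, 2.60 and 2.30 RPKM and in young adults at 41.4 RPKM. The species difference of the change was -6.88 (SE 0.36, limma adjusted p = 4.3e-05). RIT6M.504 and RIT6M.224 differed the other way, by 3.26 (SE 0.58, limma adjusted p = 0.0030) and 2.71 (SE 0.32, limma adjusted p = 0.00057).

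Across all models the change itself differed between the species in 48 of 95 tested, 31 with a higher and 17 with a lower embryo minus L1 difference in C. elegans. Over all 12603 IDs tested the shares were 32.8% and 17.1%, 50.0% in all. Of the 95 models 35 had 3 or more libraries on the step, and with such IDs left out 28 of 60 were called. The direction depended on the scaling, since quantile normalization gave 13 higher and 36 lower. With the cultures A and B as a block 42 were called, 41 of them shared with the 48.

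**Figure D3:**
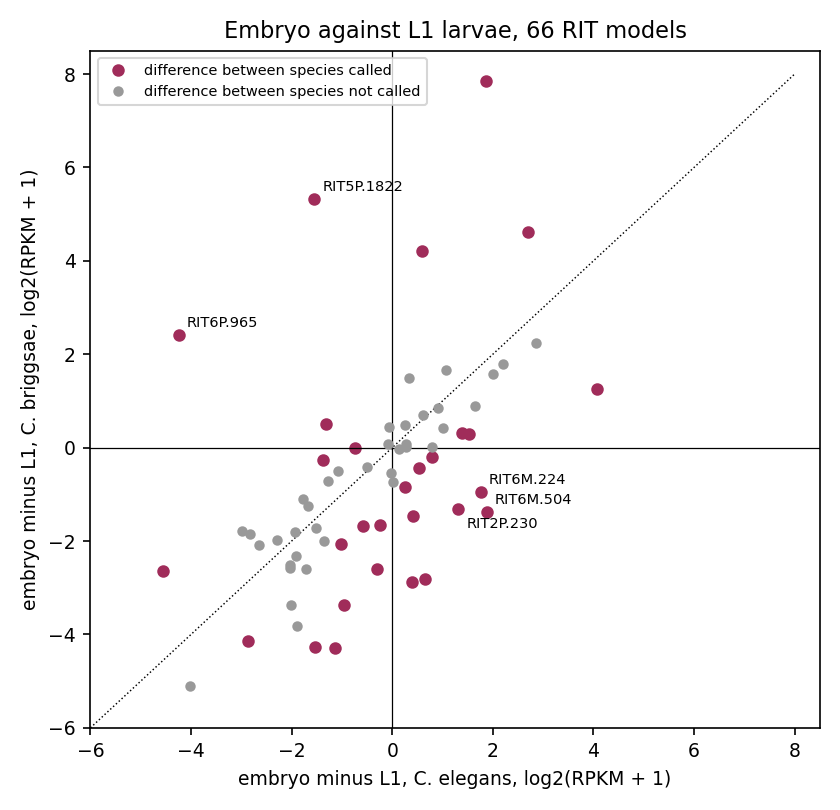
Embryo minus L1 difference in log2(RPKM + 1) in C. elegans (horizontal axis) and C. briggsae (vertical axis) for the 66 RIT models tested in both; coloured points are models whose difference between the species was called by limma, and the dotted line marks equal differences. The 5 labelled models lie in the quadrants of opposite direction, RIT5P.1822 and RIT6P.965 in the upper left and RIT6M.224, RIT6M.504 and RIT2P.230 in the lower right.

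Over the whole stage course, fewer RIT models than other pairs shared their highest stage. Among the 81 models that reached 1 RPKM in both species and had unshared C. briggsae values, 26 (32.1%) had their highest stage in common, against 41.5% of 12049 other pairs. L1 was the most frequent peak, in 28 models in C. elegans and 27 in C. briggsae, with 14 in both. Embryos were the peak of 15 and 22 models, with 7 in both, and young adults of 10 and 8, with 4 in both. Among other pairs embryos were the most frequent peak, at 31.94% in C. elegans and 35.36% in C. briggsae, and L1 had 20.08% and 23.26%. Of the 22 C. briggsae embryo peaks among RIT models, 8 belonged to models with 3 or more C. briggsae libraries on the step. Without models on the step in either species 59 remained. L1 was then the peak of 19 and 21 (32.2% and 35.59%, against 19.79% and 24.08% of 10825 other pairs). Embryos were the peak of 11 and 14 (18.64% and 23.73%, against 33.67% and 35.41%). A common peak was found in 20 of the 59 (33.9%, against 40.9%). With median-ratio scaling the shares with a common peak were 29.6% of the 81 and 32.9% of other pairs. Most peaks stood only a little above the next stage in at least 1 species. A margin of 1 (log2) in both species was found in only 7 of the 81 models, 4 of them with a common peak. Among other pairs 1115 had that margin, and 914 of them had a common peak.

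**Figure D4:**
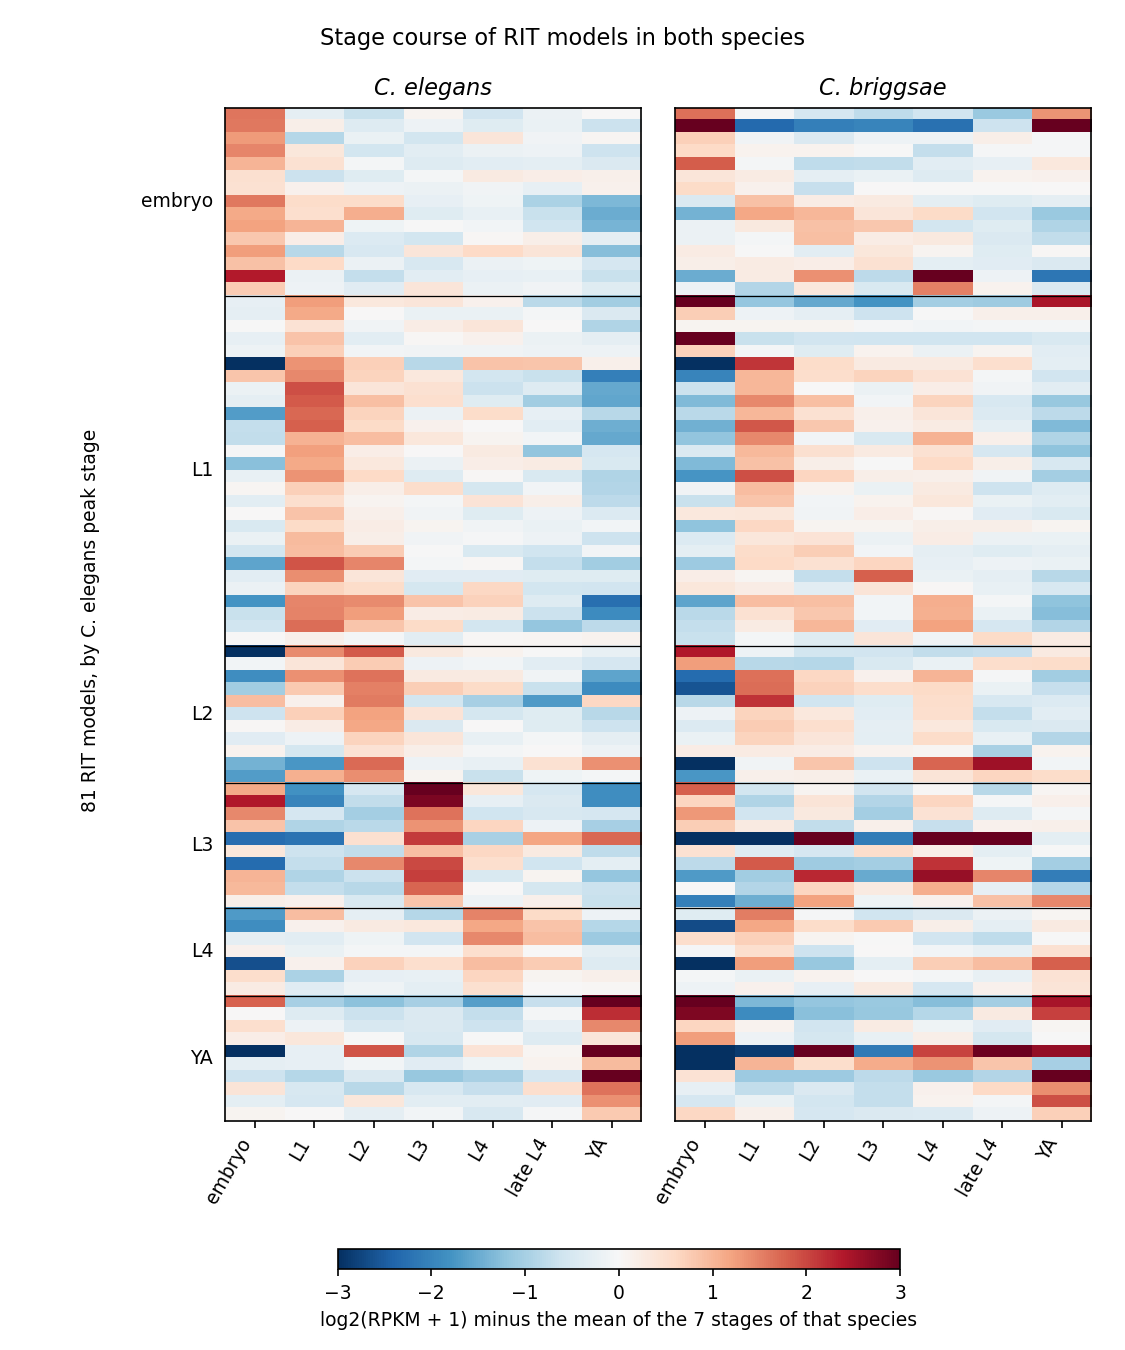
Stage course of the 81 RIT models in both species, 1 model a row, in the order of the C. elegans peak stage; colour is log2(RPKM + 1) minus the mean of that species' 7 stages, capped at 3 in either direction. Of the 28 models in the L1 block, 14 also peak in L1 in C. briggsae, and no model peaks in C. elegans late L4 larvae.

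The Pearson correlation of the course over 7 stages was computed for the 35 models whose level varied by at least 2 (log2) in both species. None of the 35 had 3 or more libraries on the step. The median r was 0.66, against 0.79 in 5238 other pairs, as a description with no test, since the stages of a species share a culture. An r of 0.8 or more was found in 11 models (31.4%, against 47.7% of other pairs), and 6 (17.1%, against 6.97%) had a negative r. The gap in the median r depended on the settings: it was 0.74 against 0.78 with median-ratio scaling, and 0.53 against 0.73 with a pseudocount of 0.1 RPKM.

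The highest r belonged to RIT4P.910, RIT3P.495, RIT1M.336, RIT4M.1636, RIT3P.1236 and RIT1M.985, at 0.90 to 0.96. RIT4P.910 was a young adult transcript in both species, at 53.8 RPKM in C. elegans and 51.2 RPKM in C. briggsae. Its other C. elegans stage libraries held 0.0929 to 0.785 RPKM and its other C. briggsae stage libraries 0.0237 to 2.93 RPKM. The reference libraries held 31.4 and 41.3 RPKM in C. elegans and 4.56 and 5.44 RPKM in C. briggsae.

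RIT3P.495 rose in L1 larvae and then declined in both species. C. elegans libraries stood at 3.00, 1.09 and 1.34 RPKM in embryos, 13.5, 17.4 and 5.72 RPKM in L1, and 6.09, 4.14, 3.73, 2.77 and 0.709 RPKM from L2 to young adults. C. briggsae libraries stood at 0.589, 1.46 and 0.748 RPKM, then 17.6, 19.5 and 18.1 RPKM, then 8.42, 4.82, 5.39, 3.34 and 1.14 RPKM. RIT1M.336 shared this course, with L1 values of 9.01 to 12.6 RPKM and 7.52 to 12.6 RPKM and embryo values of 1.33 to 2.18 RPKM and 0.345 to 1.83 RPKM. RIT3P.1236 was high from L1 to L4 and low in embryos and young adults, at 18.4 to 23.8 RPKM in C. elegans L1 larvae against 0.849 RPKM in young adults.

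The lowest r belonged to RIT6P.965 (-0.86), RIT5P.1822 (-0.51), RIT6M.504 (-0.31), RIT6M.224 (-0.28), RIT3P.171 (-0.16) and RIT1M.42 (-0.13). RIT6M.224 peaked in the C. elegans L3 library, at 9.19 RPKM, where C. briggsae stood at 0.988 RPKM. In C. briggsae it stood at 26.5 RPKM in L2, 33.8 RPKM in L4 and 14.8 RPKM in late L4 larvae, where C. elegans stood at 0.560, 0.784 and 1.59 RPKM. RIT6M.504 likewise had its highest C. briggsae values in L2 and L4 larvae, at 13.7 and 44.1 RPKM, and its highest C. elegans values in embryos, at 18.8, 18.5 and 14.4 RPKM. These stages had 1 library each, so their height has no replicate check. The adult cuticle list was also higher in the C. briggsae L2 and L4 libraries than in L3, and its part in these values was not tested.

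RIT3P.171 differed between the species in embryos. C. elegans stood at 66.7, 43.1 and 35.3 RPKM in embryos and at 33.7, 27.7 and 35.7 RPKM in L1 larvae, where the ranges overlapped. C. briggsae stood at 3.68, 5.45 and 5.03 RPKM in embryos and at 38.1, 48.3 and 40.0 RPKM in L1 larvae, which did not overlap. The change differed between the species by 3.27 (SE 0.33, limma adjusted p = 0.00031).

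**Figure D5:**
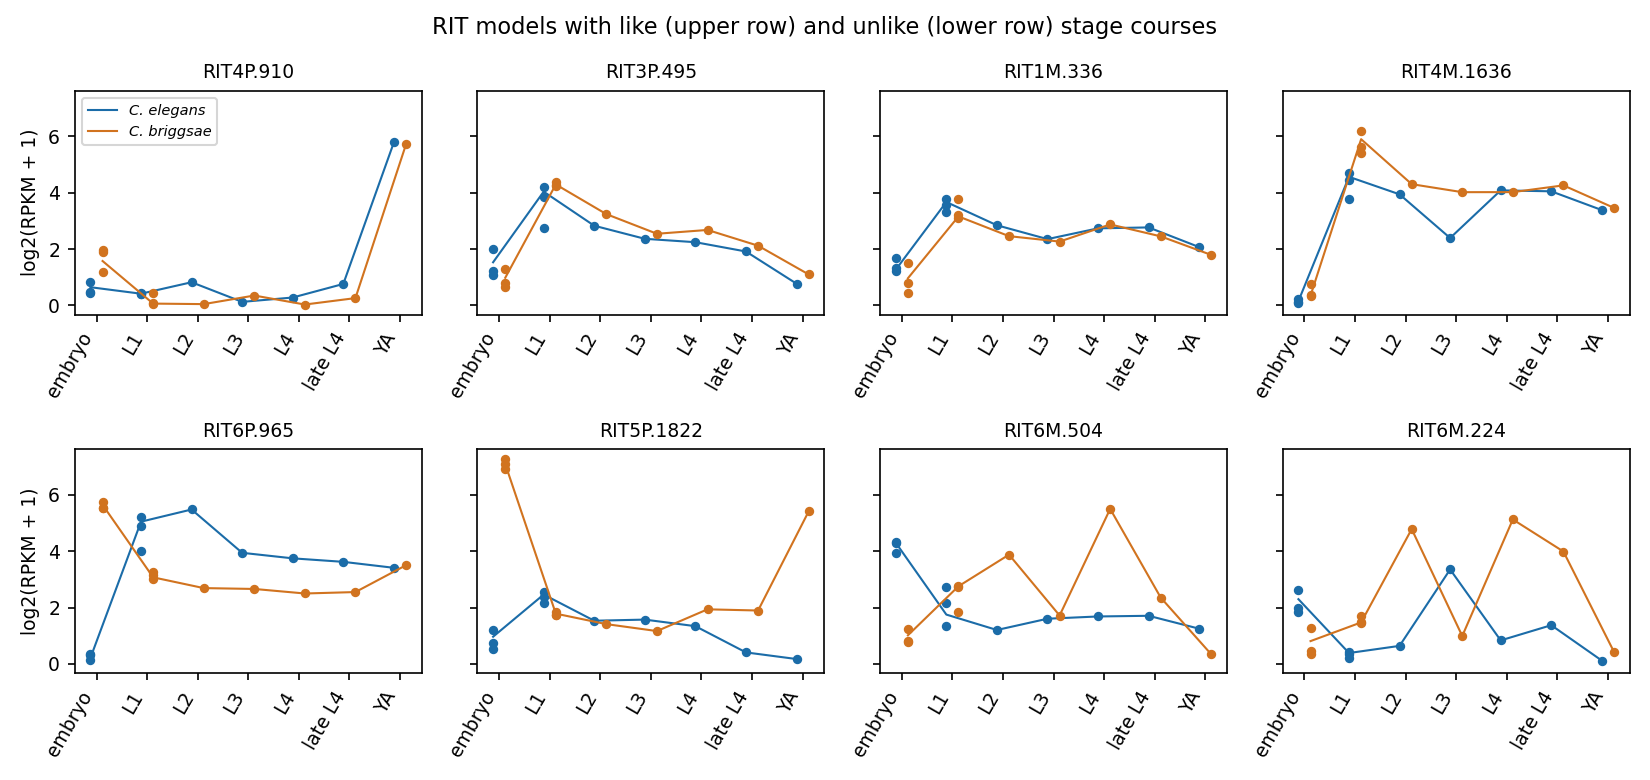
log2(RPKM + 1) by stage for 8 RIT models, C. elegans in blue and C. briggsae in orange; points are libraries and lines join the culture A values. In the upper row the courses run alike (r of 0.92 to 0.96), with young adult peaks in RIT4P.910 and L1 peaks in RIT3P.495, RIT1M.336 and RIT4M.1636, and in the lower row they do not (r of -0.86 to -0.28).

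A fit used 14 samples, 1 for each stage and species, with species as a term. It tested a stage effect averaged over the species, which served as the replicates of a stage. A change in 1 species alone could therefore be called. RIT5P.1122 was called higher in embryos (2.67, SE 0.925, limma adjusted p = 0.040) with 0.0432 to 0.056 RPKM over the C. elegans stages. The stage term was called by limma in 22 of 94 RIT models tested, beside 38.9% of all 12945 IDs. Against the mean of the other 6 stages, 9 models were higher and 15 lower in embryos (25.8% and 20.2% of all IDs). In L1 larvae 9 were higher and none lower (4.70% and 1.21%), and in young adults 7 were higher and 7 lower (12.5% and 12.6%). For L2, L3, L4 and late L4 limma called none. There 16, 5, 3 and 3 of the 94 models had an unadjusted p under 0.05. Of all 12945 IDs 2690, 1894, 1614 and 1091 did. Among all IDs 0.00772% were called for L2 and 0% for each of L3, L4 and late L4. Any stage was called in 34 RIT models, beside 57.9% of all IDs.

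The embryo excess was largest for RIT2P.1807 (4.34, SE 1.28, limma adjusted p = 0.021) and RIT1M.985 (3.03, SE 0.47, limma adjusted p = 0.00083). The L1 excess was largest for RIT3P.495 (2.14, SE 0.30, limma adjusted p = 0.016) and RIT4M.1636 (2.03, SE 0.37, limma adjusted p = 0.024). The young adult excess was largest for RIT4P.910 (5.29, SE 0.32, limma adjusted p = 8.6e-06) and RIT2M.1319 (4.05, SE 0.88, limma adjusted p = 0.012). Leaving out 1 sample ended most of these limma calls: that of RIT2P.1807 without C. briggsae embryos (adjusted p = 0.36) and that of RIT2M.1319 without C. elegans young adults (adjusted p = 0.24). The L1 calls ended without C. elegans L1 larvae (limma adjusted p = 0.26 for both) or C. briggsae L1 larvae (0.14 for RIT3P.495 and 0.25 for RIT4M.1636), and that of RIT4M.1636 also without late L4 larvae of either species (0.054).

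RPKM levels averaged over the stages agreed less between the species than those of other IDs. RPKM is scaled to model length, and the lengths used for each species are unknown. A length that differed between the species would enter every comparison of levels between them, and its part was not tested. The Spearman rank correlation of levels was 0.557 over 81 RIT models and 0.848 over 12049 other pairs, given as a description. A difference over 2-fold was found in 25 RIT models (30.9%, against 22.6%). In the limma fit 16 models were higher in C. elegans and 19 lower, beside 17.6% and 15.3% of all IDs, 32.9% in all. Some of these met the filter on low values through 1 species alone, so their call is tied to how they entered the test. They included RIT2M.1145 among those lower in C. elegans and RIT2M.152 among those higher. RIT1P.1001, RIT4M.1290, RIT4M.1663 and RIT5M.2117, also lower and named after their values were seen, were of this kind too. Among the called models, 3 of the 16 had C. briggsae libraries on the step and 7 of the 19 had C. elegans libraries on it. With such IDs left out 12 were higher and 11 lower, and leaving out L3 or late L4 larvae of either species left 23 or 20 called.

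RIT6M.1296 had the largest species difference, 5.23 (SE 0.22, limma adjusted p = 1.2e-06). In C. elegans its libraries held 43.6 to 146 RPKM, with 146, 73.0 and 66.3 RPKM in embryos while L1 larvae had 69.9, 62.7 and 70.1 RPKM. In C. briggsae 11 of 13 libraries were on the step, at 1.69 to 5.01 RPKM, and the other 2 were below it, at 0.506 and 0.319 RPKM. No C. briggsae library rose above the step, and the part of the step in the fitted difference was not tested.

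RIT4M.1299 and RIT2M.152, also higher in C. elegans and named after their values were seen, had 9 and 4 C. briggsae libraries on the step. The other models called higher in C. elegans had fewer than 3 libraries on it in either species. RIT1M.42 stood at 33.4 and 48.8 RPKM in C. elegans L2 and L3 larvae and at 0.164 and 0.211 RPKM in those of C. briggsae. Its difference averaged over the stages was 2.38 (SE 0.68, limma adjusted p = 0.025), and leaving out L2, L3, late L4 or young adults of either species ended the call, at adjusted p = 0.051 to 0.066. RIT5P.339 held 3.36 to 17.3 RPKM in the C. elegans stage libraries and 0.0532 to 2.96 RPKM in those of C. briggsae, a difference of 2.11 (SE 0.26, limma adjusted p = 0.00050).

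Of the models lower in C. elegans, RIT5P.1008 held 0.0718 to 1.94 RPKM in the C. elegans stage libraries. In C. briggsae it held 33.8 to 42.8 RPKM in L1 larvae and 8.64 to 47.6 RPKM from L2 to young adults. The species overlapped in embryos and nowhere else, and the difference was -3.66 (SE 0.63, limma adjusted p = 0.0025). RIT2M.1145 stayed at or under 0.416 RPKM in all C. elegans libraries, 4 of them on the step, and held 23.2 to 25.9 RPKM in C. briggsae L1 larvae. RIT5M.1281 reached 15.1 RPKM in C. elegans L2 larvae and 266 RPKM in C. briggsae late L4 larvae, and its embryo values of 0.490 to 1.25 RPKM and 0.999 to 1.43 RPKM overlapped.

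RIT4P.1659 was lower in C. elegans as well, by -2.54 (SE 0.43, limma adjusted p = 0.0022), with a like embryo excess in both. Its embryos held 14.8, 11.8 and 11.8 RPKM in C. elegans and 77.5, 70.3 and 57.0 RPKM in C. briggsae, and its L1 larvae 2.42, 2.88 and 2.13 RPKM and 19.5, 18.9 and 22.9 RPKM. The embryo excess was 2.00 (SE 0.25) and 1.58 (SE 0.22), and the test of the difference between these was not called (limma adjusted p = 0.31, difference 0.42, SE 0.32).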

How the data were processed

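The authors deposited RPKM values for 26 poly(A) RNA libraries, with C. briggsae values under the IDs of C. elegans models. Per the submitters' processing notes the aligner was BWA 0.5.7. The sources used here give no build, annotation, counting rule or ortholog source. Depth is unknown, so no counting interval is given, and no deposited value equals 0.

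Values were used as deposited. Libraries of culture A were averaged on log2(RPKM + 1), a scale that makes changes of low models look smaller. Tests used limma 3.58.1 in R 4.3.3 (eBayes with a trend) on all IDs with at least 1 RPKM in 2 or more of the samples fitted, and p-values were adjusted over all of them at a threshold of 0.05. The 125 IDs with shared C. briggsae values were left out of fits that used these values. A fold or difference is on the log2(RPKM + 1) scale. With n = 2 cultures, an SD for means of embryos and L1 larvae spans 2 values, and the library values are printed in its place. The fits were tested on simulated data. Other steps used Python 3.11.15 with pandas 2.3.3.

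The sample titles name A and B, which are taken here as separate time courses. That would pair embryos and L1 larvae of a species. Deviations of same-lettered samples from their stage means correlated across IDs at r = -0.005 in C. elegans and 0.191 in C. briggsae. The main fits have no block, and the fit with one is an alternative. Further alternatives were the pseudocount, the filter, the scaling, single culture A libraries, each sample left out and IDs on the step left out.

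The models, lists and tests were chosen with earlier results of these data known. Named models were the 8 highest in level, the 4 with the largest called difference in each direction per species, the 4 with the largest called species difference of the change, the 6 highest and 6 lowest course correlations, the 2 largest called excesses per stage, the 3 largest called species differences in each direction, and the 5 with shared values.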

Additional observations from a re-analysis of the deposited data

Results flagged for a closer look

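The change from embryos to L1 larvae differed between the species, by the limma test of the difference itself, in 48 of 95 RIT models tested. Beside them stood 50.0% of all 12603 IDs. In the main fit 31 of these models were higher and 17 lower, and with quantile normalization 13 were higher and 36 lower. Among the 48 were 17 of the models named by the rule, some of them named for the size of this difference. A positive value means a higher embryo minus L1 difference (log2) in C. elegans. It was positive for RIT5P.1008 (5.24), RIT5M.1281 (4.50), RIT2M.1145 (3.55), RIT3P.171 (3.27), RIT6M.504 (3.26), RIT4P.125 (3.16), RIT4P.982 (2.82), RIT4M.367 (2.75) and RIT6M.224 (2.71). It was negative for RIT5P.1822 (-6.88), RIT6P.965 (-6.66), RIT2P.1807 (-5.99), RIT5P.1122 (-5.44), RIT2M.694 (-4.82), RIT1M.985 (-1.92), RIT2M.1319 (-1.91) and RIT4P.910 (-1.33). RIT2P.230 (2.63) and RIT2M.152 (-1.89), named after their values were seen, were also called, and RIT2M.152 had 4 C. briggsae libraries on the step. RIT5P.1122 and RIT2M.694 had 8 of 13 C. elegans libraries on the common step, and RIT2M.1145 had 4. The part of the step in these differences was not tested. RIT5P.1008, RIT5M.1281, RIT2M.1145, RIT5P.1122, RIT2M.694 and RIT4P.910 passed the filter on low values through C. briggsae alone. RIT2M.152 passed it through C. elegans alone. For these models the difference mostly restates the change in the species where they were detected.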

How the results depend on the processing

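Leaving out 1 sample at a time moved the number of models called for embryos against L1 larvae from 59 to between 36 and 38 in C. elegans and from 60 to between 31 and 53 in C. briggsae. The same moved the species difference of that change from 48 to between 38 and 45, the stage term from 22 to between 15 and 32, the single-stage calls from 34 to between 27 and 46, and the species calls from 35 to between 20 and 42. Leaving out IDs on the common step, an alternative chosen after seeing the data, gave 28 in place of 48 models for the species difference of the change, with 60 models tested, and 23 in place of 35 species calls, with 61 tested. Over all IDs it called 3748 higher and 1738 lower of 10919 for the former, and 2030 higher and 1298 lower of 11049 for the latter. For embryos against L1 larvae it gave 54 calls of 70 in C. elegans and 55 of 66 in C. briggsae. Beside them stood 6007 higher and 4208 lower of 13786 IDs, and 3756 higher and 4706 lower of 10896. The median course r stayed at 0.66. With no filter on low values 40 of 113 models shared their peak stage, in place of 26 of 81, because more models entered. That was 35.4%, against 39.2% of 13700 other pairs. Counting models from 5 RPKM gave a median of 25 per C. elegans library and 30 per C. briggsae library, in place of 63 and 74. With a replicate block for cultures A and B, 57 models were called in C. elegans, 62 in C. briggsae and 42 for the difference between the species. Among the called values of the models named, 480 of 496 alternatives kept direction and call, and 16, all with a sample left out, kept the direction and lost the call, in 5 of 32 results. The 496 do not include alternatives in which a named model was not tested, because it no longer met the filter or was left out for the step. Depth is unknown, and values on the step differed between libraries only by the common ratio.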

Other observations

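The reference samples, which mix all stages, were used in no comparison. In most RIT models they lay near the mean of the stages: within 2-fold in 63 of 75 models with enough signal in C. elegans, against 74.1% of other IDs, and in 81 of 88 in C. briggsae, close to the 91.4% of other IDs. RIT5P.1008 stood highest above that mean in C. elegans, with 7.69 and 10.4 RPKM in the reference libraries and at most 1.94 RPKM in any stage library, by 2.66 (log2). RIT1M.42 did so in C. briggsae, with 13.0 and 12.7 RPKM in the reference libraries and at most 10.1 RPKM in any stage library. These models were chosen after their values were seen.

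A group of models named for other reasons also had a high value in the single C. elegans L3 library. RIT2P.830 stood at 39.8 RPKM there, RIT4P.982 at 36.4 RPKM, RIT4P.1659 at 15.2 RPKM and RIT6M.224 at 9.19 RPKM, against 4.49, 3.41, 2.73 and 1.59 RPKM as the highest of the L2, L4, late L4 and young adult libraries. C. briggsae L3 values of the same models, 3.29, 12.7, 13.9 and 0.988 RPKM, were below those of L2 and L4 larvae.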
